A study of Mus musculus with 6 samples.

Results

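The genes described here were 44 neuropeptide and peptide-processing genes, chosen by name: 35 genes of peptide hormones and transmitters (among them Crhbp, which encodes a peptide-binding protein), 6 granins and related granule proteins, and 3 processing enzymes. All 44 were found by symbol among the 27378 genes of the deposited tables. Their RNA was measured by RNA sequencing in whole brain of male C57BL/6J mice, an inbred laboratory strain labelled as wild type (WT). Mice of the PS group had received polystyrene nanoplastics intranasally over 28 days. In the control group the nasal doses were sterile distilled water, over the same period, and each group had 3 libraries. The comparison asked how gene expression in the brain differed between exposed and unexposed mice. Age, particle dose and particle size are not given in the sources used here. Because the whole brain was sequenced, fewer cells of a type and less RNA per cell cannot be told apart. Nothing in the labels says that the 3 libraries of a group came from separate animals, so every p-value rests on variation among these 6 samples, some of which may be technical. Controls 1 to 3 and PS 1 to 3 below are the replicates of each group.

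Neuropeptides are made as large precursors that enter dense-core vesicles, are cut by prohormone convertases at pairs of basic residues, and are trimmed by carboxypeptidase E before release. Granins are acidic proteins that help build these vesicles and are found in most neurons that release peptides. Peptides themselves are much more local: vasopressin, oxytocin, orexin and melanin-concentrating hormone come from small hypothalamic nuclei, relaxin-3 mainly from the nucleus incertus of the pons, enkephalin and substance P largely from the striatum, and somatostatin, neuropeptide Y and VIP from interneurons of the cortex and hippocampus. A whole-brain library therefore mixes peptide genes of widespread cells with those of small nuclei at 1 site.

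Several of these precursors are related, and reads from a stretch that is identical in a pair of genes cannot be given to either gene from that stretch alone. The longest stretch of coding sequence shared without a mismatch was found for 9 related pairs in GENCODE M21 transcripts (build GRCm38, another build than the GRCm39 named for the files). Avp and Oxt, neighbours on chromosome 2, shared 127 bases that run from exon 1 into exon 2 and encode part of the neurophysin carrier protein. Below, capitals mark the shared bases and small letters the 12 bases of coding sequence on either side, 5′ to 3′, for Avp on the minus strand (within chr2:130581133-130582411) and Oxt on the plus strand (within chr2:130576328-130576715).
Avp: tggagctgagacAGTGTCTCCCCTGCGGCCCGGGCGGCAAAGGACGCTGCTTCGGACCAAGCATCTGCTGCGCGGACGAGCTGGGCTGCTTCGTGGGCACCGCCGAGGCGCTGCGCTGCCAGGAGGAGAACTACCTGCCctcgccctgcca
Oxt: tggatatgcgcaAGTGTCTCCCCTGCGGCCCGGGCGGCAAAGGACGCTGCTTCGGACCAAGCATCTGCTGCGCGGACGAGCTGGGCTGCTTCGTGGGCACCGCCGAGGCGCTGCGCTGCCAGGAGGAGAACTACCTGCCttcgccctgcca
Calca and Calcb, which encode the CGRP peptides, shared 61 bases, and in the other 7 pairs the longest shared stretch was 8 to 21 bases. In the somatostatin gene Sst and the cortistatin gene Cort these 21 bases lay in exon 2 of both genes and encode the shared core of the mature peptides.
Sst: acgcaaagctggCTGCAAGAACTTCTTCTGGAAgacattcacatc
Cort: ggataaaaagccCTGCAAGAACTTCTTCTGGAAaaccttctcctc
The split of reads between Avp and Oxt, and between Calca and Calcb, is therefore uncertain over these stretches, and the sources used here do not give how the authors treated reads with several matches.

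The somatostatin promoter is the textbook home of the cAMP response element, the palindrome TGACGTCA bound by CREB, a transcription factor that answers to neuronal activity. RefSeq promoters (build GRCm38.p6) were available for 35 of the 44 genes. The palindrome, which reads the same on both strands, was searched in the 250 bases before the annotated gene start. It lay before 6 of the 35 genes (Cartpt, Chgb, Pcsk1, Scg2, Sst and Ucn), in 6 of 38 promoter entries or 15.8%, against 1.55% of all 32851 entries. These 6 were of different kinds: peptides, granins and a processing enzyme. The 250 bases before the start of 4 of them are shown, 5′ to 3′, with the palindrome in capitals, and those of Chgb and Ucn are left out: Sst at chr16:23890845-23891094 on the minus strand, Scg2 at chr1:79440027-79440276 on the minus strand, Pcsk1 at chr13:75089607-75089856 on the plus strand and Cartpt at chr13:99900684-99900933 on the minus strand.
Sst: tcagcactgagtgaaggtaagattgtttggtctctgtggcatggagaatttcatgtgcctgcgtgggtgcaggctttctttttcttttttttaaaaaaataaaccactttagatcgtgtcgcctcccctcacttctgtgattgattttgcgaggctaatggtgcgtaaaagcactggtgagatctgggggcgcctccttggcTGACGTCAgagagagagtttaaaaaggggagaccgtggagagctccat
Scg2: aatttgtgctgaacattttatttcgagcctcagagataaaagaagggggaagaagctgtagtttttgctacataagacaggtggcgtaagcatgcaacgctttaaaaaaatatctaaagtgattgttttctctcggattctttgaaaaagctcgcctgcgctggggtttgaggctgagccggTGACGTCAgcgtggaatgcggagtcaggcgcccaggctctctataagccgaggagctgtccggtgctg
Pcsk1: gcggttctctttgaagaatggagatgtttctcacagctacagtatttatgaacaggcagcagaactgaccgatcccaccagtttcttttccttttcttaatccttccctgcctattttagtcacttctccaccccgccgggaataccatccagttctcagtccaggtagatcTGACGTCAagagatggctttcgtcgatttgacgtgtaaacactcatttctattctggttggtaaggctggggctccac
Cartpt: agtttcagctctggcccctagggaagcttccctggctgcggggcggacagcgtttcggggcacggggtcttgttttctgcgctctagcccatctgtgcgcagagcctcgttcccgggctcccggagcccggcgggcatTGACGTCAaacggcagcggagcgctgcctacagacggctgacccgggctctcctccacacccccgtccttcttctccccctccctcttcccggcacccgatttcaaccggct
The palindrome began 48 bases before the start of Sst, 68 before Scg2, 78 before Pcsk1 and 112 before Cartpt. A match describes the letters only and does not show binding.

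Reads behind the values numbered 39239183 to 40335590 per library. On the first principal component of all tested genes, control replicate 2 lay away from the rest. In a list of 16 hindbrain markers, drawn up after the peptide values had been seen, that library was the lowest of the 6 for 15 genes. The summed level of this list was 36.0, 7.0 and 34.3 FPKM in controls 1 to 3, and 32.7, 26.2 and 23.5 in PS 1 to 3. Tph2, the serotonin-synthesis enzyme of the raphe nuclei, stood at 4.60, 0.233 and 6.84 FPKM in controls 1 to 3, and 4.35, 1.82 and 2.46 in PS 1 to 3. Without this library the log2 fold change turned its sign in 12 of the 26 tested genes named by rule, and those values stand beside each gene.

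Levels, in FPKM (sequenced fragments scaled by gene length and library size), spanned more than 4 orders of magnitude. Of the 44 genes, 7 had a mean above 100 FPKM over the 6 libraries, 12 between 10 and 100, 15 between 1 and 10, and 10 under 1. Because of the length scaling, levels of different genes can be set side by side, as far as the lengths used are right. The highest was Cpe, which encodes carboxypeptidase E, at 978, 1021 and 1011 FPKM in controls 1 to 3, and 929, 984 and 990.0 in PS 1 to 3. Next were the granin gene Chgb (mean 182 FPKM) and the granin gene Scg2 (mean 150.1), followed by the peptide genes Penk, Sst and Cck. Kiss1, Calcb and Nms, which encode kisspeptin, beta-CGRP and neuromedin S, were the lowest, each with at most 18 reads in any library. The oxytocin level needs care: the length that makes its values whole reads was 2274 bases, against 611 for Avp, so its FPKM is divided by a longer gene model. Kiss1 and Calcb also had long models, of 2456 and 3443 bases, so their place among the lowest depends on these lengths. Nmu, at 816 bases, had fewer reads than Calcb in every library but a higher mean FPKM.

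**Figure D1:**
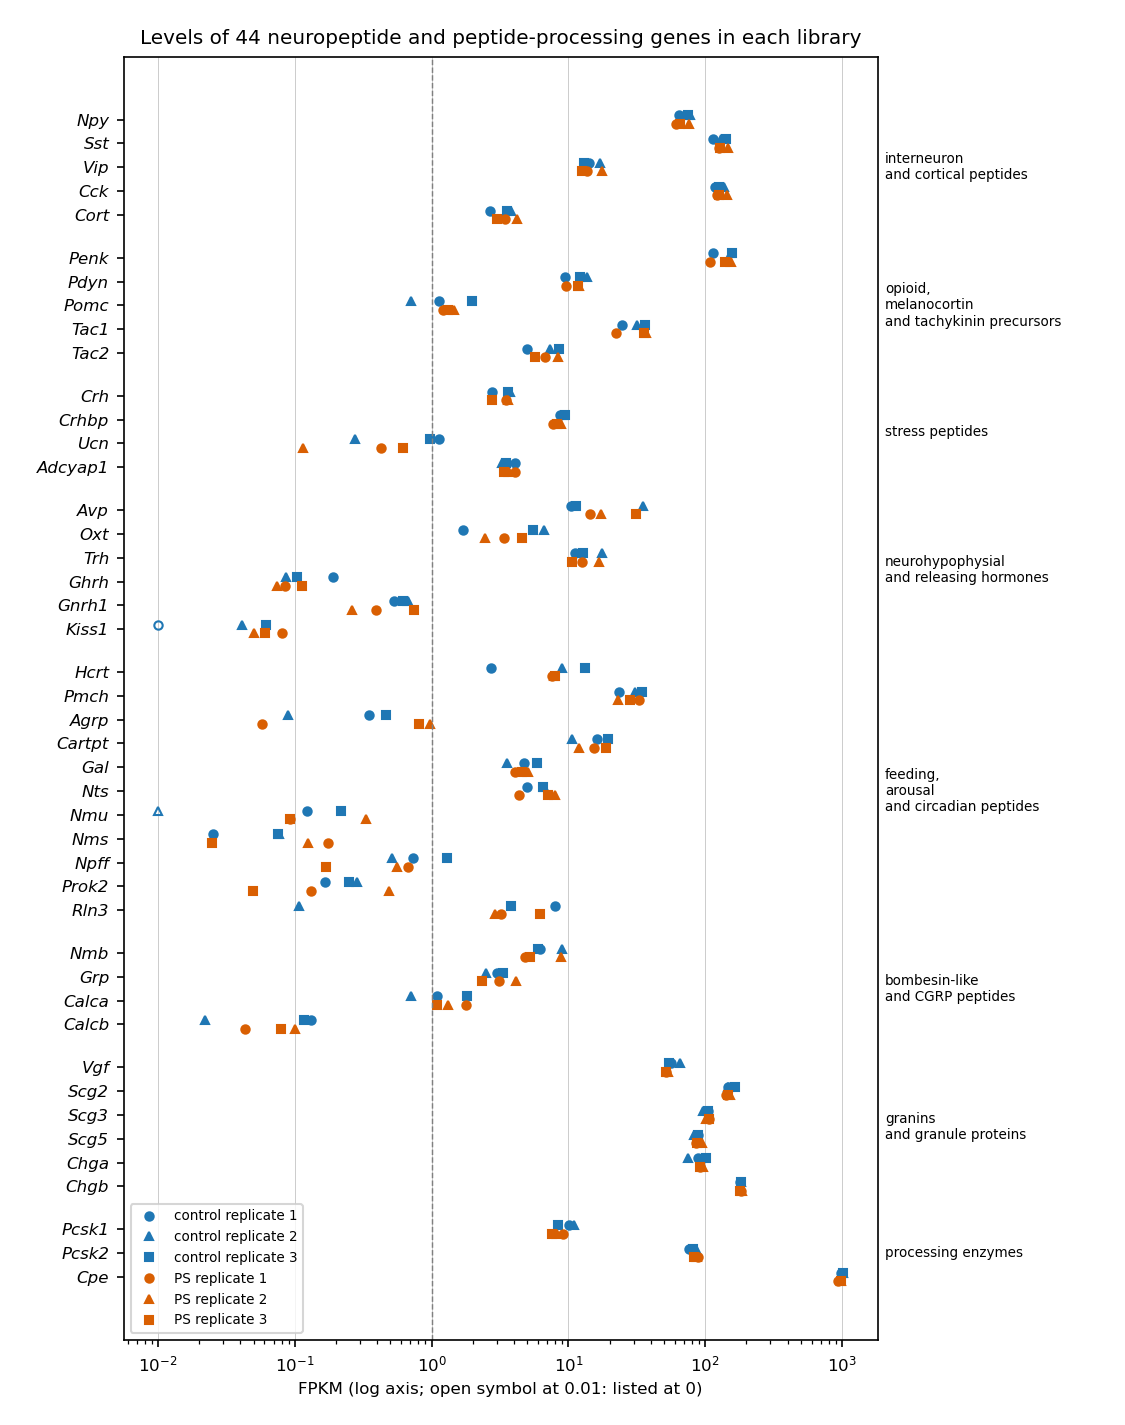
Level of each of the 44 genes in each library, in FPKM on a log axis, grouped by role (blue, control; orange, PS; circles, triangles and squares, replicates 1, 2 and 3; open symbols, listed at 0; dashed line, 1 FPKM). The granins and processing enzymes form tight clusters, whereas Avp, Oxt, Hcrt, Rln3 and the genes under 1 FPKM spread widely within a group.

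No gene of the set was called as different between PS and control brains. Genes with a mean of at least 1 FPKM were tested with limma on log2(FPKM + 1), and 34 of the 44 passed this filter. Of these 34, 0 were called at an adjusted p under 0.05, where 0.164% of all 12229 tested genes were called (20 genes, all lower in PS). With the replicate number as a block, 45 were lower and 3 higher, and with sample weights 335 were lower and 297 higher. None of the 34 reached an unadjusted p under 0.05 either, against 5.94% of all tested genes, and limma-voom on recovered reads also called 0 of them. The log2 fold changes, PS over control, ran from -0.22 (Oxt) to 0.44 (Rln3), with 19 above 0 and 15 below. Their median was 0.0093, and that of all tested genes 0.0030. The fold change of a low gene is understated on this scale.

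A missed threshold does not show equal levels, so the 95% intervals bound what these libraries allow. For 29 of the 34 genes the whole interval, on the log2(FPKM + 1) scale, lay inside a 1.5-fold change in either direction, against 97.7% of all tested genes. This scale shrinks the changes of genes near 1 FPKM, so for them the count does not bound the change in expression. Pomc and Calca, counted as inside, had log2 fold changes of 0.072 and 0.14 on this scale, and 0.18 and 0.29 with limma-voom. The 5 whose intervals reached beyond it were Avp, Oxt, Hcrt, Rln3 and Nmb. All 9 granin and enzyme genes lay inside. The narrowest interval among the 34 was that of Chgb, from -0.11 to 0.13, and the widest that of Rln3, from -0.99 to 1.87. The direction was unsettled for most: 28 of the 34 log2 fold changes changed sign in at least 1 alternative setting, and 6 (Crhbp, Vgf, Scg2, Pcsk1, Pcsk2 and Cpe) kept it in all settings run. The share of all tested genes that changed sign was not counted, so this is not read as a trait of the set.

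**Figure D2:**
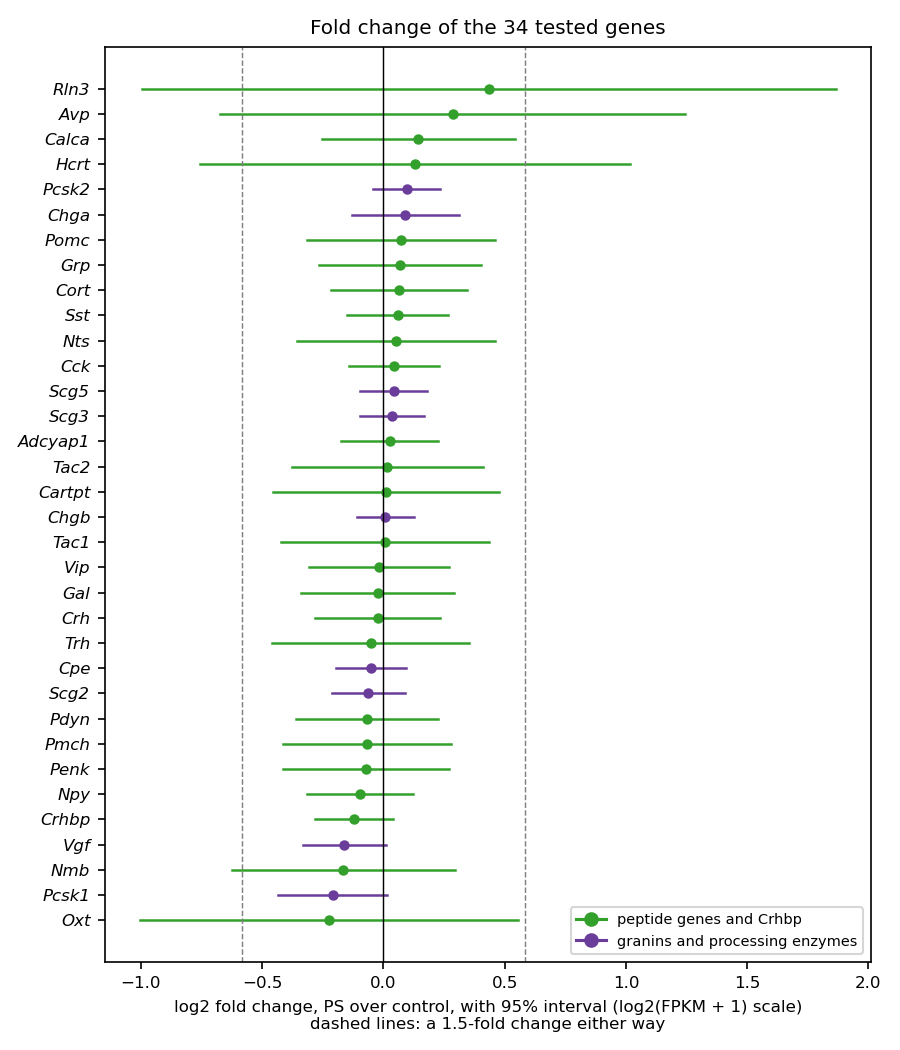
Log2 fold change of PS over control for the 34 tested genes (points) with 95% intervals from limma (lines), green for peptide genes and Crhbp, purple for granins and processing enzymes, dashed lines at a 1.5-fold change. Every interval crosses 0, and those of Avp, Oxt, Hcrt, Rln3 and Nmb pass a dashed line.

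Among the processing enzymes, Pcsk1, the prohormone convertase that makes the first cuts in many precursors, stood at 10.2, 10.9 and 8.36 FPKM in controls 1 to 3, and 9.09, 8.29 and 7.61 in PS 1 to 3. Only control replicate 3 fell among the PS values, so the groups overlapped. The log2 fold change was -0.21 (95% interval -0.44 to 0.016, limma adjusted p = 0.845), and over the alternatives the adjusted p ran from 0.0441 to 0.9996. The lowest value came from sample weights, the single setting in which a gene of the set was called, and that setting called 5.17% of all tested genes. The log2 fold change of Pcsk1 was -0.14 without control replicate 2. Pcsk2, the convertase that completes many peptides, was at 76.4, 85.0 and 81.6 FPKM in controls 1 to 3, and 89.0, 87.7 and 83.1 in PS 1 to 3 (log2 fold change 0.096, adjusted p = 0.930). Its point estimate lay on the opposite side of 0 from that of Pcsk1, and the difference between the 2 enzymes was not tested. Cpe was at 1003 ± 22.5 FPKM for controls and 967 ± 33.8 for PS (mean ± SD, n = 3), a log2 fold change of -0.053 with an interval from -0.20 to 0.091.

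Of the granule proteins, Vgf was the 1 gene of the 34 whose groups did not overlap, where 11.3% of all tested genes did not. VGF is a granin-like precursor first known as a transcript induced by nerve growth factor. It stood at 56.2, 65.8 and 54.4 FPKM in controls 1 to 3, and 52.0, 53.2 and 51.7 in PS 1 to 3. Control replicate 2 was the highest, and control replicate 3 lay just above PS replicate 2. The log2 fold change was -0.16 (95% interval -0.33 to 0.0084, limma adjusted p = 0.844), and -0.080 without control replicate 2. The activity-responsive granin gene Scg2 stood at 148, 147 and 166 FPKM in controls 1 to 3, and 143, 152 and 146 in PS 1 to 3, with control replicate 3 the highest (log2 fold change -0.062, 95% interval -0.21 to 0.088, adjusted p = 0.975), and the value was -0.0049 without control replicate 3. Chgb, which encodes chromogranin B, held nearly the same level in all 6 libraries, at 179.9, 184 and 182 FPKM in controls 1 to 3, and 183, 185 and 180.5 in PS 1 to 3. Chga, which encodes chromogranin A, was at 88.5, 74.7 and 101 FPKM in controls 1 to 3, and 92.3, 95.8 and 91.1 in PS 1 to 3, and its lowest and highest values were both controls. Its log2 fold change was 0.091, and -0.020 without control replicate 2. Scg3, a granin that binds cholesterol-rich granule membrane, ran from 97.0 to 107 FPKM, and Scg5, the chaperone of Pcsk2, from 83.0 to 94.7.

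For all 5 interneuron and cortical peptides the interval, on the log2(FPKM + 1) scale, lay inside a 1.5-fold change. Npy, the gene of neuropeptide Y, stood at 64.2, 76.9 and 75.3 FPKM in controls 1 to 3, and 61.0, 76.1 and 65.1 in PS 1 to 3. Replicate 1 was the lowest and replicate 2 the highest in both groups (log2 fold change -0.098, 95% interval -0.32 to 0.12, adjusted p = 0.975). Sst, whose promoter with its palindrome is shown above, was at 114, 129 and 143 FPKM in controls 1 to 3, and 126, 146 and 129 in PS 1 to 3 (log2 fold change 0.058, 95% interval -0.15 to 0.27). Cck, the gene of cholecystokinin, was at 117, 137 and 125 FPKM in controls 1 to 3, and 121, 144 and 127 in PS 1 to 3. Within either group its replicate 2 was the highest and replicate 1 the lowest. Vip ran from 12.5 to 17.5 FPKM, and Cort, the relative of Sst, from 2.68 to 4.17. Summed markers of interneurons (a list of 10) were 351, 352 and 353 FPKM in controls 1 to 3, and 371, 355 and 364 in PS 1 to 3.

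The opioid and tachykinin precursors varied more from library to library than between groups. Penk, the gene of the enkephalins, stood at 113, 154 and 158 FPKM in controls 1 to 3, and 109, 154 and 140.5 in PS 1 to 3. The first replicate was the lowest of each group (log2 fold change -0.074, 95% interval -0.42 to 0.27, adjusted p = 0.990). Pdyn, the gene of the dynorphins, stood at 9.46, 13.8 and 12.3 FPKM in controls 1 to 3, and 9.61, 12 and 11.8 in PS 1 to 3 (log2 fold change -0.068, adjusted p = 0.990, and 0.041 without control replicate 2). Tac1, the precursor of substance P, showed the same low first replicates, at 24.8, 31.8 and 36.6 FPKM in controls 1 to 3, and 22.4, 36.7 and 35.5 in PS 1 to 3. Tac2, the precursor of neurokinin B, ran from 4.99 to 8.53 FPKM.

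Pomc, the precursor of ACTH, melanocortins and beta-endorphin, is made by few hypothalamic neurons and by the pituitary. It was low, at 1.14, 0.712 and 1.96 FPKM in controls 1 to 3, and 1.21, 1.46 and 1.32 in PS 1 to 3 (log2 fold change 0.072, adjusted p = 0.992). The lowest and the highest library were both controls, and the log2 fold change was -0.11 without control replicate 2. Of 9 pituitary markers none reached the filter, and their summed level was 2.15, 0.795 and 3.78 FPKM in controls 1 to 3, and 0.677, 0.846 and 0.883 in PS 1 to 3. Gh, the gene of growth hormone, had 45, 19 and 118 reads in controls 1 to 3 and was listed at 0 in all 3 PS libraries. Prl, the gene of prolactin, had 3, 3 and 4 reads in controls 1 to 3 and was also listed at 0 in every PS library, and Fshb was at 0 in all 6. The part of pituitary RNA in the Pomc values was not tested.

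Among the stress peptides, Crh, which encodes corticotropin-releasing hormone and drives the hypothalamic stress axis, was at 2.77, 3.76 and 3.63 FPKM in controls 1 to 3, and 3.50, 3.64 and 2.78 in PS 1 to 3. The groups covered the same range (log2 fold change -0.024, 95% interval -0.28 to 0.23, adjusted p = 0.996), and the value was 0.039 without control replicate 2. Crhbp, whose product binds and holds that hormone, was at 8.63, 9.13 and 9.52 FPKM in controls 1 to 3, and 7.68, 8.86 and 8.30 in PS 1 to 3. PS replicate 2 overlapped the control values (log2 fold change -0.12, 95% interval -0.28 to 0.038, adjusted p = 0.903). Adcyap1, the gene of PACAP, was at 4.08, 3.30 and 3.50 FPKM in controls 1 to 3, and 4.05, 3.68 and 3.38 in PS 1 to 3, with replicate 1 the highest in both groups (log2 fold change 0.026, adjusted p = 0.995, and -0.025 without control replicate 2). Urocortin (Ucn) stayed under the filter, with 29, 7 and 25 reads in controls and 11, 3 and 16 in PS.

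Vasopressin and oxytocin, the hormones that magnocellular neurons send to the posterior pituitary, showed wide scatter within both groups. Avp stood at 10.4, 35.0 and 11.3 FPKM in controls 1 to 3, and 14.3, 17.3 and 31.4 in PS 1 to 3. Control replicate 2 and PS replicate 3 stood well above the others of their groups, and the groups overlapped. The log2 fold change of 0.29 (95% interval -0.67 to 1.24, adjusted p = 0.980) became 0.82 without control replicate 2. It was -0.031 without PS replicate 3 and -0.0088 without control replicate 1. Oxt was at 1.71, 6.67 and 5.48 FPKM in controls 1 to 3, and 3.36, 2.46 and 4.58 in PS 1 to 3 (log2 fold change -0.22, 95% interval -1.01 to 0.56, adjusted p = 0.980), and 0.066 without control replicate 2. The pair did not move as 1 unit: control replicate 3 was near the top of the Oxt values and near the bottom of the Avp values. Trh, the gene of thyrotropin-releasing hormone, was at 11.2, 17.7 and 12.9 FPKM in controls 1 to 3, and 12.6, 16.9 and 10.7 in PS 1 to 3, with replicate 2 the highest in both groups (log2 fold change -0.052, adjusted p = 0.995, and 0.12 without control replicate 2).

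The peptides of feeding and arousal included Hcrt and Rln3, which with Avp and Oxt had the 4 largest SEs of the set. Hcrt, the precursor of the wake-promoting orexins, is made in the lateral hypothalamus. It stood at 2.72, 8.99 and 13.2 FPKM in controls 1 to 3, and 7.57, 7.90 and 8.04 in PS 1 to 3. The control libraries spread 4.85-fold and enclosed the PS libraries, which spread 1.06-fold. Its log2 fold change was 0.13 (95% interval -0.76 to 1.02, adjusted p = 0.994) and -0.43 without control replicate 1, 0.28 without control replicate 2 and 0.54 without control replicate 3. Pmch, the precursor of melanin-concentrating hormone from the same hypothalamic area, was at 23.4, 30.5 and 34.5 FPKM in controls 1 to 3, and 32.9, 22.9 and 28.2 in PS 1 to 3 (adjusted p = 0.992). Its libraries spread 1.48-fold in controls, less than those of Hcrt, and 1.44-fold in PS, more than those of Hcrt. Cartpt, the precursor of CART peptides, was at 16.1, 10.7 and 19.4 FPKM in controls 1 to 3, and 15.3, 11.9 and 18.8 in PS 1 to 3. In both groups replicate 2 was the lowest and replicate 3 the highest, and the log2 fold change was 0.011 (95% interval -0.46 to 0.48), and -0.22 without control replicate 2. Gal, the gene of galanin, ran from 3.56 to 5.86 FPKM, and Nts, the gene of neurotensin, from 4.35 to 7.96.

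Rln3, the gene of relaxin-3, had the widest range of the tested genes of the set. It stood at 8.01, 0.107 and 3.82 FPKM in controls 1 to 3, and 3.21, 2.92 and 6.21 in PS 1 to 3, that is, 151, 2 and 72 reads in controls and 61, 56 and 118 in PS. Control replicate 2 held almost none. The same library was the lowest for 15 of the 16 hindbrain markers. Dbh, the noradrenaline-synthesis enzyme of pontine neurons, stood at 3.14, 0.134 and 1.18 FPKM in controls and 1.17, 0.815 and 3.41 in PS. Its libraries took the same order as those of Rln3 within each group. This held for 3 of the 16 hindbrain markers (Dbh, Slc6a2 and Gata3) and not for the other 13, and Dbh was picked out after the values had been seen. The log2 fold change of Rln3 was 0.44 (95% interval -0.99 to 1.87, adjusted p = 0.980). It was -0.42 without control replicate 2, 1.09 with a pseudocount of 0.1 and 1.27 with limma-voom.

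In the bombesin-like and CGRP class, Nmb, the gene of neuromedin B, was at 6.15, 9.02 and 6.02 FPKM in controls 1 to 3, and 4.84, 8.85 and 5.20 in PS 1 to 3. Replicate 2 stood above the others in each group (log2 fold change -0.17, 95% interval -0.63 to 0.29, adjusted p = 0.979), and the log2 fold change was 0.0013 without control replicate 2. Grp, the gene of gastrin-releasing peptide, was at 3.02, 2.51 and 3.34 FPKM in controls 1 to 3, and 3.13, 4.11 and 2.33 in PS 1 to 3 (log2 fold change 0.068, adjusted p = 0.992, and -0.016 without control replicate 2). Calca, which encodes calcitonin and alpha-CGRP, was at 1.09, 0.705 and 1.81 FPKM in controls 1 to 3, and 1.78, 1.32 and 1.09 in PS 1 to 3, with control replicate 2 the lowest (log2 fold change 0.14, adjusted p = 0.979, and -0.026 without control replicate 2).

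The 10 genes under the filter were Ucn, Ghrh, Gnrh1, Kiss1, Agrp, Nmu, Nms, Npff, Prok2 and Calcb. Their groups overlapped in every case, and with no filter their adjusted p ran from 0.921 to 0.996. Agrp, the hunger peptide of the arcuate nucleus, had the most reads of them in any library, with 12, 3 and 16 in controls and 2, 34 and 28 in PS. Its highest and its lowest value were both in the PS group. Ucn had 3 to 29 reads, Npff (neuropeptide FF) 3 to 23, Prok2 (prokineticin 2) 3 to 30, Ghrh (growth hormone-releasing hormone) 8 to 20, Gnrh1 (gonadotropin-releasing hormone) 6 to 17 and Nmu (neuromedin U) 0 to 11. Calcb had 18, 3 and 16 reads in controls and 6, 14 and 11 in PS. Kiss1 had 0, 4 and 6 reads in controls and 8, 5 and 6 in PS, and Nms had 1, 3 and 3 and 7, 5 and 1. In all 3 the groups overlapped.

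Peptide genes varied widely between libraries of the same group, a measure that does not use the contrast and is given as a description. The SD within groups, on the log2(FPKM + 1) scale, had a median of 0.265 over the 25 tested peptide genes and of 0.0654 over the 9 granin and enzyme genes, beside 0.0934 over all tested genes. Of the 25 peptide genes, 17 ranked in the top 5% of all 12229 tested genes by this SD, and 0 of the 9 granin and enzyme genes did. A wide spread was not particular to peptide genes. Median SDs of marker lists were 0.647 for hindbrain, 0.317 for choroid plexus, 0.312 for olfactory bulb and 0.235 for striatum. They were 0.226 for cerebellum, 0.208 for oligodendrocyte, 0.196 for thalamus and midbrain, 0.167 for interneuron and 0.163 for cortical excitatory markers. Rln3 ranked 4, Avp 10, Hcrt 12 and Oxt 18 from the top, with SDs of 1.15, 0.768, 0.709 and 0.620. A rough figure for counting error was smaller: from the mean number of reads it would give an SD of about 0.165 for Rln3, 0.0655 for Avp, 0.105 for Hcrt and 0.0755 for Oxt, and it was under 1/3 of the observed SD in 25 of the 34 genes. This figure is on the plain log2 scale, without the added 1, so it and the observed SD are on unlike scales. For Rln3 the mean also covers control replicate 2 with its 2 reads, whose own counting error it does not give. At the other end, Chgb had an SD of 0.0175, at the 0.368 percentile of tested genes, and Cpe 0.0427. The granin and enzyme genes also had higher levels than most of the peptide genes. Without control replicate 2, 18 of the 25 peptide genes were in the top 5%. In that fit the SD of Rln3 was 0.538 and that of Avp 0.462. With a pseudocount of 0.1, which weighs low genes more, 13 were.

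**Figure D3:**
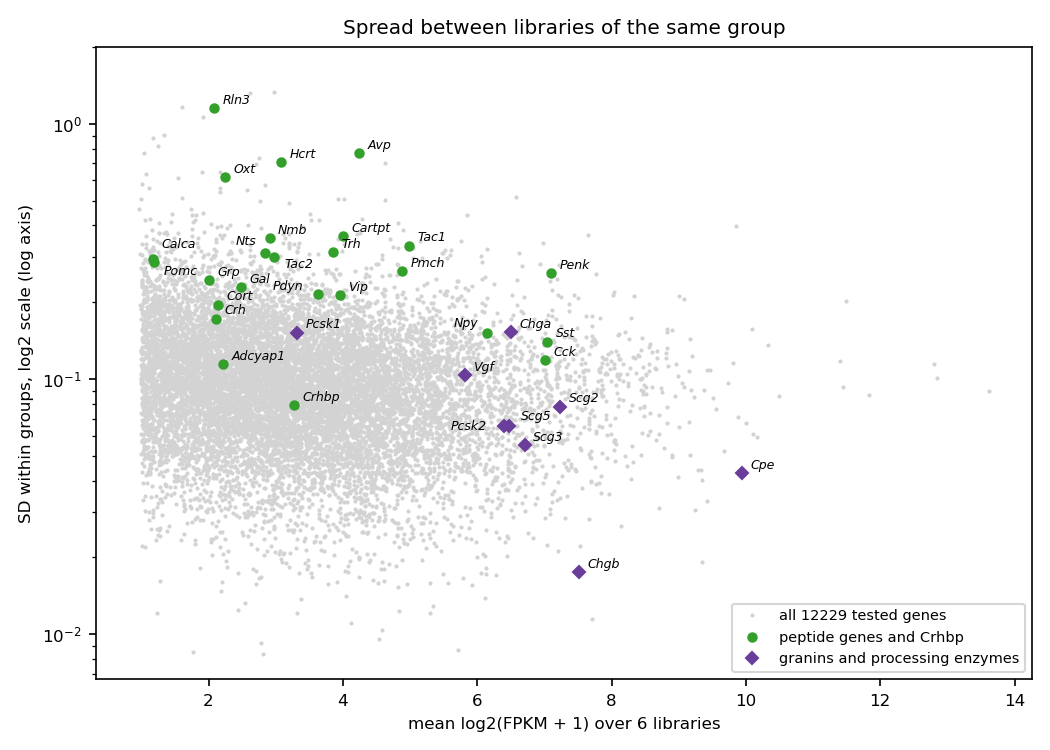
SD within groups (log2 scale, log axis) against mean log2(FPKM + 1) for all tested genes (grey), peptide genes and Crhbp (green circles) and granins and processing enzymes (purple diamonds). Rln3, Avp, Hcrt and Oxt lie near the top edge of the cloud, and Chgb near its lower edge at a similar level to Penk and Sst.

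Part of this spread followed the replicate number and part did not. With the number as a block in the model, the SD fell to under 1/2 in 12 of the 34 genes, and in 14.0% of all tested genes. It went from 0.261 to 0.0606 for Penk, from 0.364 to 0.0852 for Cartpt, from 0.357 to 0.0951 for Nmb and from 0.213 to 0.0413 for Vip. For Avp it went from 0.768 to 0.844, for Hcrt from 0.709 to 0.680 and for Rln3 from 1.15 to 1.04. The full order of the 3 replicate numbers was the same in both groups for 8 of the 34 genes (Npy, Vip, Cck, Pdyn, Hcrt, Cartpt, Nts and Vgf), or 23.5%, near the 19.6% of all tested genes. With the block, 0 of the 34 were called, and 2 (Pcsk1 and Vgf) reached an unadjusted p under 0.05, where 7.76% of all tested genes did.

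Markers of brain regions also varied over the libraries, set here beside 9 peptide genes picked after their values had been seen. The summed level of 10 striatal markers was 200.3, 284 and 266 FPKM in controls 1 to 3, and 213, 276 and 271 in PS 1 to 3, lowest in replicate 1 of both groups, as were Penk, Pdyn and Tac1. For 9 olfactory bulb markers the sum was 48.2, 66.9 and 45.8 FPKM in controls 1 to 3, and 43.7, 60.0 and 37.9 in PS 1 to 3, highest in replicate 2 of both groups, as were Nmb, Trh and Vip. This pattern was not particular to bulb markers. Summed cortical excitatory markers were 356, 450.4 and 352 FPKM in controls 1 to 3, and 372, 404 and 359.8 in PS 1 to 3. Npy, Cck and Cort were also highest in replicate 2 of both groups. Within the bulb list, Lhx5 was lowest in replicate 2 of both groups. The summed hindbrain markers were lowest in control replicate 2 among the controls, as were Rln3, Calca and Ucn. In the controls Rln3 and Ucn took the full order of the hindbrain sum, and Calca did not. In the PS group Calca took the order of the hindbrain sum, and Rln3 and Ucn did not. None of these genes took it in both groups. Of 12 hypothalamic markers only Six3 passed the filter. Their summed level was 3.39, 4.92 and 5.26 FPKM in controls 1 to 3, and 3.92, 4.75 and 5.78 in PS 1 to 3. Of these sums, Six3 alone held 1.90, 2.96 and 2.56 FPKM in controls, and 2.15, 2.48 and 3.21 in PS. Hcrt took the order of the summed level within each group, a likeness seen only after the values were known. Avp took that order in PS only, Pmch in controls only, and Oxt in neither group. No marker was called. All 10 oligodendrocyte markers had log2 fold changes above 0, 3 of them at an unadjusted p under 0.05 (median 0.27), as did all 10 cerebellar markers, 2 of them at that level (median 0.17), while 7 of 8 tested olfactory bulb markers were below 0, 1 of them at that level (median -0.17). Of all 12229 tested genes, 6281 were above 0 and 5.94% reached that level. The summed cerebellar markers were 343, 353 and 363 FPKM in controls 1 to 3, and 488, 334 and 394 in PS 1 to 3, with PS replicate 2 below every control. Summed oligodendrocyte markers were 1539, 1168 and 1674 FPKM in controls 1 to 3, and 1718, 1606 and 1801 in PS 1 to 3, lowest in control replicate 2. The part of tissue composition in the peptide values was not tested.

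**Figure D4:**
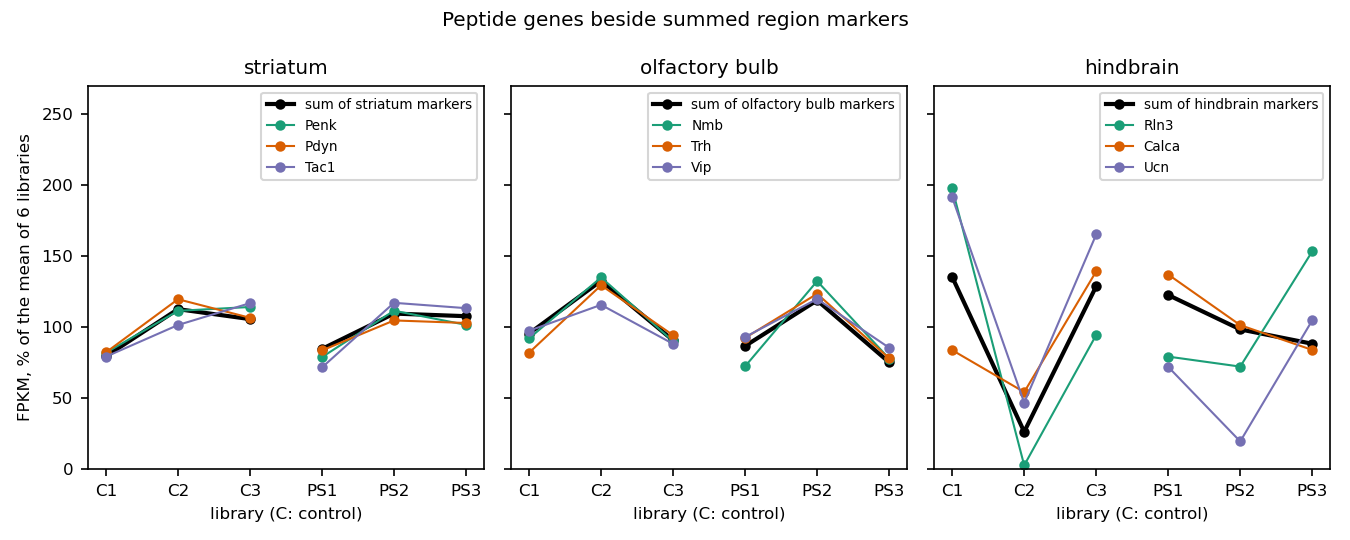
Level in each library as a percent of the mean of the 6 libraries, for summed markers of striatum, olfactory bulb and hindbrain (black) and 3 peptide genes beside each (colours; lines join libraries of a group only to guide the eye). Penk, Pdyn and Tac1 are low where striatal markers are low, Nmb, Trh and Vip are high where bulb markers are high, and Rln3 is near 0 in control replicate 2, where hindbrain markers are at 26.3% of their mean.

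The receptors and the rest of the peptide pathway were also measured. Of 49 listed peptide receptors 27 were tested, 0 were called and 1 reached an unadjusted p under 0.05, where 5.94% of all tested genes did. Among the 27, 8 had log2 fold changes above 0 and 19 below, and the median was -0.034. Across all 12229 tested genes, 6281 were above 0 and 5948 below. The lowest p belonged to Sstr2, a somatostatin receptor, at 5.51 ± 0.565 FPKM for controls and 4.12 ± 0.199 for PS (log2 fold change -0.34, SE 0.079, adjusted p = 0.326). Its control and PS values did not overlap, where those of 11.3% of all tested genes did not, and the groups of its ligand gene Sst overlapped. Next came the orexin receptor gene Hcrtr2 (log2 fold change -0.22, adjusted p = 0.856) and the melanin-concentrating hormone receptor gene Mchr1 (-0.20, adjusted p = 0.945). Of 17 other processing and degrading peptidases, 0 were called, 1 reached an unadjusted p under 0.05, 10 were above 0 and 7 below (median 0.027). Cpm, a membrane carboxypeptidase, stood at 3.86 ± 0.383 FPKM for controls and 4.80 ± 0.249 for PS (limma adjusted p = 0.570), and its groups did not overlap. Qpct, which forms the pyroglutamate end of several peptides, was at 7.42 ± 1.04 FPKM for controls and 6.33 ± 0.112 for PS (limma adjusted p = 0.844). The groups of Qpct did not overlap either. The convertase gene Pcsk6 was at 7.56 ± 0.845 FPKM for controls and 8.73 ± 1.05 for PS (limma adjusted p = 0.879).

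Of 19 genes of dense-core vesicle formation and release, 0 were called and 0 reached an unadjusted p under 0.05. Their log2 fold changes ran from -0.033 to 0.13, with 15 above 0, where 6281 of all 12229 tested genes were above 0. The 3 with the lowest p were Syt9, a calcium sensor of release, Ica1 and Ptprn2, a vesicle membrane protein, with adjusted p of 0.934, 0.967 and 0.975. Of 9 tested genes of other peptide precursors, 0 were called and 1 reached an unadjusted p under 0.05, where 5.94% of all tested genes did. Adm, the precursor of the vasodilator adrenomedullin, which is made by endothelium and many other cells, stood at 2.67, 3.13 and 2.14 FPKM in controls 1 to 3, and 1.18, 1.44 and 1.04 in PS 1 to 3. Its log2 fold change was -0.71 (SE 0.11, limma adjusted p = 0.0685), and its groups did not overlap, where those of 11.3% of all tested genes did not. It was called with the replicate block (adjusted p = 0.00527), with sample weights (0.00151) and without control replicate 3 (limma adjusted p = 0.0203), in a range that reached 0.481 with no filter. For Edn3 (endothelin 3) the log2 fold change was 0.25 (adjusted p = 0.844), and for Apln (apelin) it was -0.19 (adjusted p = 0.868). Sample weights, which called 632 genes in all, also called Sstr2, Hcrtr2, Edn3 and Apln, and limma-voom called none of the 12 named genes of these lists.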

How the data were processed

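RNA sequencing libraries of whole mouse brain, 3 control and 3 PS, were grouped by their titles, and no library was left out. For each library the authors deposited a table with FPKM per gene. Per the submitters' processing notes, fastp, HISAT2, HTSeq, R 3.2.0 and the build GRCm39 were used, with no order, strand setting or rule for reads with several matches given, so overlapping and antisense genes are uncertain. The FPKM values moved in whole steps: with the library totals and gene lengths found by search, 99.99% of the 26556 genes above 0 came out as whole reads in every library, within 0.02 reads. Genes with a mean of at least 1 FPKM (12229) entered a limma fit (limma 3.58.1, R 4.3.3) on log2(FPKM + 1), group only, with a variance trend, two-sided, and Benjamini-Hochberg adjustment over all tested genes. With 3 libraries a group, exact permutation p-values have a floor of 0.1 and were not used. The pipeline was tested on simulated data with independent libraries and the same dispersion for all genes. That setting lacks the wide spread of the peptide genes, so it does not show what change could be found in them.

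The members and gene lists were chosen with earlier results of these data known. Named genes were the 3 tested members of each role with the lowest unadjusted p, the 5 with the largest SD within groups, the 3 highest and 3 lowest, and 3 genes of each pathway list. Other members are given by range, except Tac1, Agrp and Ucn, whose values were added after they had been seen. Lists of markers covered hypothalamus, pituitary, striatum, interneurons, cortical excitatory neurons, thalamus and midbrain, cerebellum, olfactory bulb, choroid plexus and oligodendrocytes. No marker was called. Median log2 fold changes were -0.026 for cortical excitatory, 0.076 for thalamus and midbrain, 0.044 for striatum and 0.14 for choroid plexus markers. Alternatives were other pseudocounts and filters, 2 rescalings, no trend, sample weights, a replicate block, limma-voom on the recovered reads and leaving out each library.

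Replicates are numbered 1 to 3 in both groups, without a statement that equal numbers are linked. Across genes, the deviations of equal-numbered libraries from their group means had correlations of 0.181, 0.185 and 0.161, over the limit of 0.1, so the pairing was taken up as an alternative fit (replicate block). It rests on the values alone.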

Additional observations from a re-analysis of the deposited data

How the results depend on the processing

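The finding that 0 of the 34 tested genes of the set were called held in every alternative but sample weights, which called 1 (Pcsk1, log2 fold change -0.27, limma adjusted p = 0.0441). Apart from that setting the lowest adjusted p of a member was 0.170. The count of 20 over all genes moved far more: 632 with sample weights (297 higher, 335 lower), 9 at a mean of at least 5 FPKM, 1 with no filter (higher), 48 with the replicate block (3 higher, 45 lower), 44 past a 1.5-fold change at an unadjusted p below 0.05 (of which 0 were members), and 0 to 66 with 1 library left out, with 0 without PS replicate 2, 2 each without PS replicate 1 and control replicate 1, and 66 without control replicate 3 (17 higher, 49 lower). The replicate block changed the call of no member. The median log2 fold change of the members stayed between -0.060 and 0.095 in all settings. Sample weights turned the sign of 10 named members: Npy 0.047, Penk 0.21, Pdyn 0.19, Crh 0.14, Adcyap1 -0.10, Oxt 0.57, Trh 0.17, Pmch 0.17, Cartpt -0.066 and Rln3 -0.64. Rescaling to the total without mitochondrial genes gave -0.0019 for Chgb. Leaving out 1 library turned further signs. The ranges of log2 fold change were -0.027 to 0.13 for Sst, -0.025 to 0.10 for Cck, -0.23 to 0.069 for Penk, -0.21 to 0.041 for Pdyn, -0.11 to 0.28 for Pomc, -0.13 to 0.067 for Crh, -0.027 to 0.095 for Adcyap1, -0.031 to 0.82 for Avp, -0.68 to 0.066 for Oxt, -0.22 to 0.12 for Trh, -0.43 to 0.54 for Hcrt, -0.22 to 0.064 for Pmch, -0.22 to 0.19 for Cartpt, -0.42 to 1.09 for Rln3, -0.40 to 0.0013 for Nmb, -0.086 to 0.22 for Grp, -0.026 to 0.33 for Calca, -0.020 to 0.19 for Chga and -0.0014 to 0.018 for Chgb. The cause of these turns was not tested. The 10 genes under 1 FPKM had at most 34 reads in a library, and how far depth or variation between libraries limits them was not tested.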
